A study of Mus musculus with 14 samples.

Results

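Interferons act through receptors built of paired chains, and the 8 genes described here encode the chains of these receptors together with the intracellular pair STAT2 and IRF9. The members were Ifnlr1, Il10rb, Ifnar1, Ifnar2, Ifngr1, Ifngr2, Stat2 and Irf9, and every probe set annotated to 1 of these genes alone was taken, which gave 14 of the 45101 probe sets on the array. Ifnlr1 was selected on its KO minus WT difference in these same arrays, so its values are given as a description with no test. The other 7 genes entered as relatives in the same pathway.

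The samples were germinal centre B cells, which proliferate and mutate their immunoglobulin genes during an immune response, sorted from the spleen of individual mice by the phenotype B220+CD95+PNA+ and profiled on Affymetrix mouse arrays. Cg1-Cre, present in all mice including WT, drives recombination from the immunoglobulin gamma 1 constant region locus once B cells are activated. The strain background was C57BL/6x129Sv and the age 8 to 12 weeks. Sheep red blood cells were given on day 0 and again on day 5, and spleens were taken on day 12. The groups were KO (Crebbpfl/fl Cg1-Cre, n = 5, 3 males), HET (Crebbpfl/+ Cg1-Cre, n = 5, 2 males) and WT (Crebbp+/+ Cg1-Cre, n = 4, 1 male). The product of Crebbp acetylates histones and acts as a coactivator of many transcription factors, STAT proteins among them. The question was whether a lower level of Ifnlr1 in cells without Crebbp is shared by the other receptor chains.

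The values are log2 intensities on the RMA scale, so a difference of 1 is a change of 2-fold. All 4 probe sets of Crebbp had a lower mean in KO than in WT arrays, by 0.27 to 0.87. The 10 germinal centre B cell markers that had a probe set were all above the median level of the array, 6.43, among them Bcl6 and S1pr2, against 2 of 9 T cell markers, 2 of 7 neutrophil markers and 1 of 6 epithelial markers. Of the plasma cell markers 5 of 6 were above it, and of the naive and marginal zone markers 6 of 7. These counts do not set germinal centre cells apart from other B lineage cells. The mean level of the T cell list ran from 5.09 to 5.79 in KO, 5.05 to 5.62 in HET and 5.16 to 5.50 in WT arrays, and that of the epithelial list from 5.18 to 5.42 in KO, 5.19 to 5.46 in HET and 5.18 to 5.51 in WT. KO 3 stood apart from the rest, with a median r of 0.979 to the 13 remaining arrays, where each of those had 0.984 to 0.990. In a sorted bulk sample, fewer cells carrying a transcript and less of it per cell cannot be told apart.

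Type I interferons bind IFNAR1 with IFNAR2, type III interferons (interferon lambda) bind IFNLR1 with IL10RB, and interferon gamma binds IFNGR1 with IFNGR2. IL10RB is also a chain of the receptors for IL-10 and IL-22. Type I and type III receptors use the kinases JAK1 and TYK2 and act through STAT2 and IRF9 on the interferon-stimulated response element (ISRE). Interferon gamma acts through JAK1 and JAK2 on the gamma-activated site (GAS). Type I and gamma receptors are found on most cells, whereas IFNLR1 is best known from epithelial cells and neutrophils.

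Ifnlr1, the ligand-binding chain that only the interferon lambda receptor uses, was represented by 1 probe set. Its log2 values in KO arrays 1 to 5 were 6.85, 6.77, 6.77, 6.81 and 7.19. HET arrays 1 to 5 had 7.69, 7.45, 7.20, 7.64 and 7.56. WT arrays 1 to 4 had 7.95, 7.88, 7.51 and 7.98. The highest KO array was lower than the lowest WT array and also, by a narrow margin between KO 5 and HET 3, lower than the lowest HET array. HET and WT arrays overlapped. Among all 10225 genes tested, groups that did not overlap with KO lower were found for 3.65% against WT and for 0.822% against HET.

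The mean of Ifnlr1 was 6.88 ± 0.18 in KO (SD, n = 5), 7.51 ± 0.20 in HET (SD, n = 5) and 7.83 ± 0.22 in WT (SD, n = 4). With sex as a covariate the KO minus WT difference was -1.02 (SE 0.11), which leaves 49.2% of the WT intensity. The HET minus WT difference was -0.35 (SE 0.11), or 78.4% of WT, and the KO minus HET difference was -0.67 (SE 0.10). In group means, the HET difference from WT was 33.8% of the KO difference. Male arrays averaged 6.94 in KO, 7.67 in HET and 7.98 in WT, and female arrays 6.79 in KO, 7.40 in HET and 7.78 in WT, so the order of the genotypes was the same in each sex, with 1 male WT array. The KO values lie close above the median level of the array, where RMA compresses differences. Leaving out any 1 of the 14 arrays gave KO minus WT differences from -1.10 to -0.97.

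**Figure D1:**
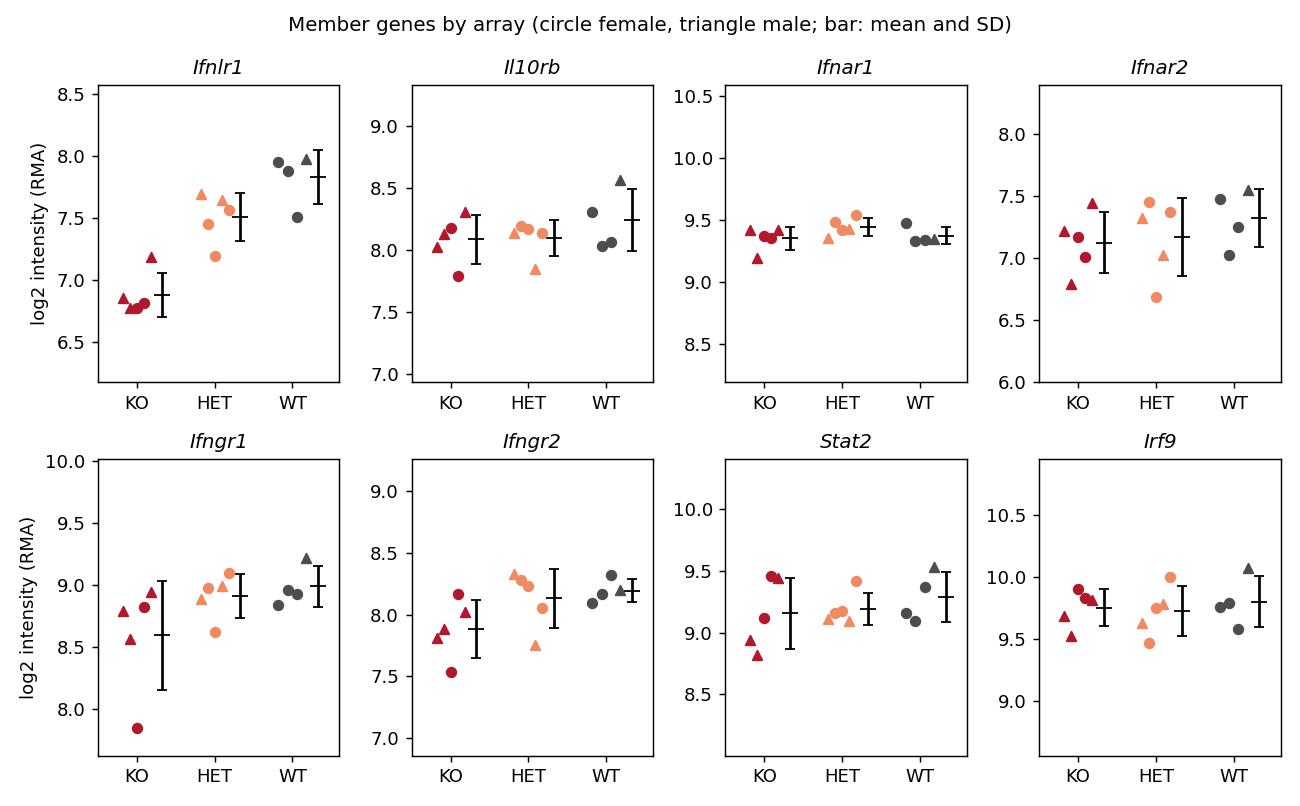
Log2 intensity of the 8 genes, each on its brightest probe set, in every array of the KO, HET and WT groups (circles female, triangles male, bars mean and SD, each y axis spanning the same range). Ifnlr1, selected on its KO minus WT difference, is the panel in which KO arrays (6.77 to 7.19) lie below all WT arrays (7.51 to 7.98). The groups overlap in the other 7 panels. Over all genes tested, 3.65% had KO below WT without overlap.

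The promoter of Ifnlr1 is shown because it is the member that was selected on its KO minus WT difference. Those of Ifnar1 and Stat2, whose groups overlapped, are shown beside it because their windows hold motifs of the pathway. The windows run from 250 bases before to 50 after a start site of the gene as the promoter table places it (RefSeq, GRCm38.p6) and are printed 5′ to 3′. For Ifnar1 that site lies downstream of the outermost start of the annotated gene, so the window covers the first bases of the gene as well. Capitals mark matches on either strand to the core of the cAMP response element (CRE), TGACG, to the ISRE core (GAAA, any 2 bases, GAAA), or to the GAS element TTCNNNGAA.
Ifnlr1 (chr4:135686207-135686506, plus strand): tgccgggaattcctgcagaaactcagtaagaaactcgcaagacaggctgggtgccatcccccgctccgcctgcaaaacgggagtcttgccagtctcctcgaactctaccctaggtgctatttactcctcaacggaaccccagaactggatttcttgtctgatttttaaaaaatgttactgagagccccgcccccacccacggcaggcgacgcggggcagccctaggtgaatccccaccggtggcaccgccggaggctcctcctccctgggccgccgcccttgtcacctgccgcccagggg
Ifnar1 (chr16:91484965-91485264, plus strand): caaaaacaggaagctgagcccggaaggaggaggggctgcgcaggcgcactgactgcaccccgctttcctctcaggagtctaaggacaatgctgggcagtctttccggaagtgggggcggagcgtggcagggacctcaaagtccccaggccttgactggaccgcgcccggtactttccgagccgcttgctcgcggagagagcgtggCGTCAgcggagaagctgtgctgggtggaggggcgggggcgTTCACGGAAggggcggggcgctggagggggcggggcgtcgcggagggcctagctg
Stat2 (chr10:128270248-128270547, plus strand): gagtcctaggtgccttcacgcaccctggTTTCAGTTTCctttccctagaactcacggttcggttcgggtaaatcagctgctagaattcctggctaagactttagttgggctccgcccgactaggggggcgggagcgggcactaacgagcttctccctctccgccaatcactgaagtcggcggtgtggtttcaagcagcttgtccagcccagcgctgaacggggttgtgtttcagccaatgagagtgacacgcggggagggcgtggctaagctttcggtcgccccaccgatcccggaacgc

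In the Ifnlr1 window 0 matches to these 3 motifs, and 0 to the full CRE TGACGTCA or to TATAAA, were found. That says only that these letters are not in these 300 bases. The Ifnar1 window had 1 CRE core on the minus strand at position -45 from the table's start site, and 1 GAS match, TTCACGGAA, at -5, both downstream of the outermost annotated start. Stat2, itself a target of interferon signalling, had 1 ISRE core match on the minus strand, TTTCAGTTTC, at -222. Ifnar2 had 1 GAS match, TTCCTGGAA, while Ifngr1, Ifngr2 and both windows of Irf9 had 0 matches to any of the motifs. Of all 32851 promoter windows, 20.8% held the CRE core, 1.79% the full CRE, 3.44% the ISRE core, 8.30% GAS and 13.6% TATAAA. The GC content was 61% for Ifnlr1, 68.3% for Ifnar1 and 59.3% for Stat2, against a median of 52.7% for all windows. Il10rb was not in the promoter table.

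Of the other 7 members, none passed the test. Limma called 0 of 7 in KO against WT after Benjamini-Hochberg adjustment over the 10225 genes, with 1 of 7 at an unadjusted p under 0.05, against a background of 2.44% of genes called and 13.1% at an unadjusted p under 0.05. The 7 differences were all negative and ran from -0.48 to -0.01, with a median of -0.19, against a median of -0.00 over all genes tested, of which 51% were negative. KO and WT arrays overlapped for all 7 genes, where 3.65% of all genes tested had KO below WT without overlap. The 95% intervals of the 7 differences reached down to -0.86 at the lowest, for Ifngr1. A difference that fails the adjusted test is not shown to be absent.

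Il10rb, the partner of IFNLR1 in the interferon lambda receptor, had log2 values of 8.03, 8.13, 8.18, 7.79 and 8.31 in KO arrays 1 to 5. In HET arrays it had 8.14, 8.19, 8.17, 7.85 and 8.14, and in WT arrays 8.31, 8.03, 8.06 and 8.57. All 3 groups overlapped, and the highest value belonged to WT 4. The KO minus WT difference was -0.19 (SE 0.13, limma adjusted p = 0.612), with a 95% interval from -0.47 to 0.08. HET minus WT was -0.16 (SE 0.12, limma adjusted p = 1.00). Without WT 4 these differences were -0.046 in KO and -0.035 in HET, and without KO 4 the KO difference was -0.10 and without HET 4 the HET difference -0.082. A dim second probe set, below the median level, averaged 5.31 ± 0.41 in KO (SD, n = 5), 5.42 ± 0.27 in HET (SD, n = 5) and 5.40 ± 0.25 in WT (SD, n = 4). In percent of the WT intensity, Il10rb in KO stood at 87.6% (interval 72.3% to 106%).

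**Figure D2:**
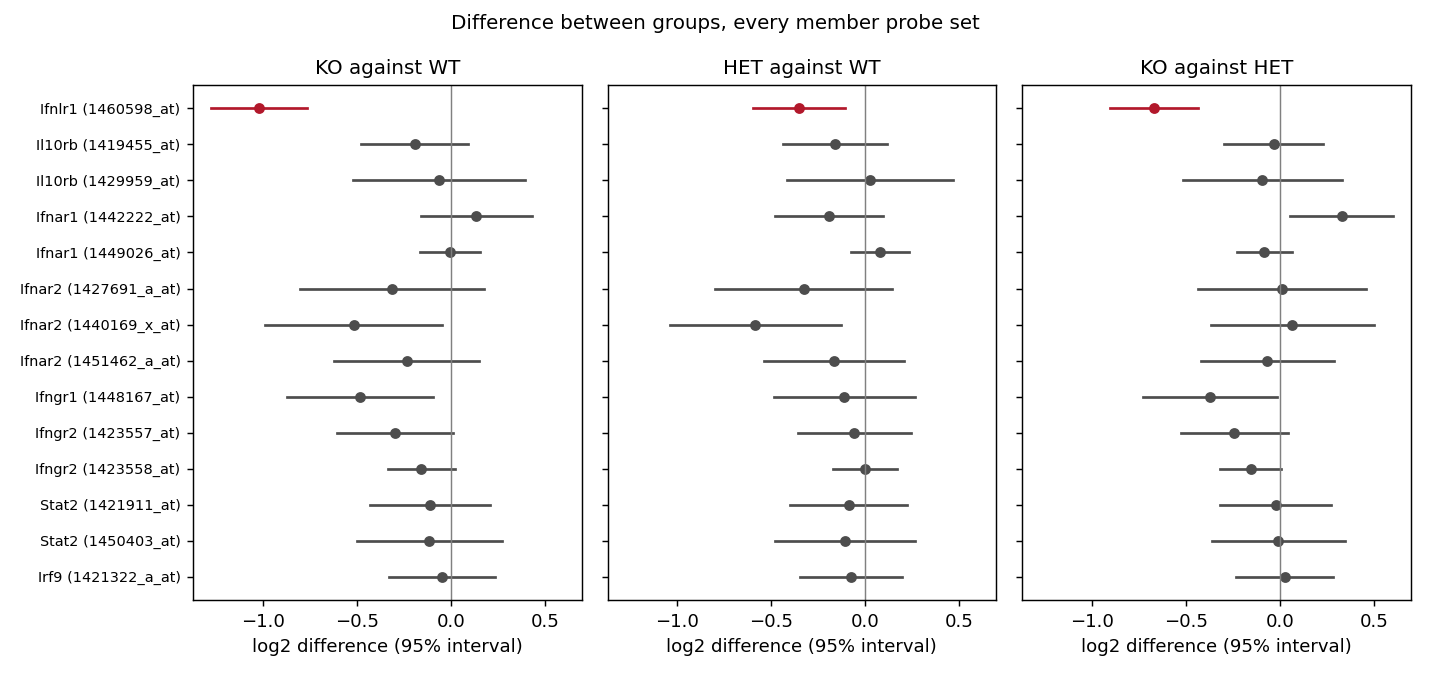
Log2 differences of all 14 probe sets, with 95% intervals, for KO against WT, HET against WT and KO against HET (limma over all 45037 non-control probe sets, sex as covariate). The Ifnlr1 probe set, in red and given as a description, lies at -1.02 in KO against WT, with an interval from -1.28 to -0.77. The other 13 intervals there reach down to -0.99, for an Ifnar2 probe set, whose interval overlaps that of Ifnlr1.

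Of the type I receptor chains, Ifnar1 had values of 9.42, 9.19, 9.37, 9.35 and 9.42 in KO, 9.35, 9.49, 9.42, 9.42 and 9.54 in HET, and 9.48, 9.33, 9.34 and 9.35 in WT arrays. These values lay close together, with a KO minus WT difference of -0.01 (SE 0.07, limma adjusted p = 0.990) and an interval from -0.15 to 0.14. That interval is 90.3% to 110.0% of the WT intensity and the narrowest among the members. Its other probe set, dimmer and just below the median level of the array, averaged 6.53 ± 0.24 in KO (SD, n = 5), 6.16 ± 0.16 in HET (SD, n = 5) and 6.33 ± 0.27 in WT (SD, n = 4). Over the 14 arrays the 2 Ifnar1 probe sets ran against each other (r = -0.61), so the dim one did not follow the bright one.

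Ifnar2, which encodes the high-affinity chain and also gives rise to a soluble form, had 3 probe sets. The brightest had 7.22, 6.79, 7.17, 7.005 and 7.44 in KO, 7.32, 7.45, 6.68, 7.02 and 7.37 in HET, and 7.47, 7.03, 7.25 and 7.55 in WT arrays. The groups overlapped, with a KO minus WT difference of -0.23 (SE 0.18, limma adjusted p = 0.671), which was -0.15 without WT 4. The HET minus WT difference of -0.17 ran from -0.26 to -0.038 with 1 array left out, the smallest being without HET 3. A dimmer probe set, whose suffix marks probes that can match other transcripts, had 6.38, 5.96, 7.03, 6.12 and 6.56 in KO, 6.33, 6.37, 6.08, 6.83 and 6.01 in HET, and 6.59, 6.92, 7.02 and 7.03 in WT arrays. Most KO and HET arrays lay below the WT arrays there, with 1 KO array, KO 3, and 1 HET array, HET 4, within the WT range. Its differences were -0.52 in KO (SE 0.22, limma adjusted p = 0.658) and -0.58 in HET (SE 0.21, limma adjusted p = 1.00), adjusted over all 45037 probe sets. The remaining one differed by -0.31 in KO and -0.33 in HET, both without a call. Over the 14 arrays it ran with the dimmer probe set (r = 0.74) more than with the brightest one (r = 0.28).

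For both chains of the interferon gamma receptor the KO minus WT difference shrank by more than 1.5 times without KO 3, the array that stood apart. The dimmer Ifnar2 probe sets went the other way, since KO 3 was their highest KO array. Without it the KO mean fell from 6.41 to 6.25 (WT 6.89) for the one that can match other transcripts. It fell from 6.81 to 6.67 (WT 7.12) for the remaining one. Ifngr1, the ligand-binding chain, had 8.79, 8.57, 7.84, 8.83 and 8.95 in KO, 8.89, 8.98, 8.62, 8.99 and 9.09 in HET, and 8.84, 8.96, 8.93 and 9.22 in WT arrays. KO 3 was the lowest of all arrays, and of the KO arrays only KO 5 lay within the WT range. The KO minus WT difference was -0.48 (SE 0.18, limma adjusted p = 0.222), with an interval from -0.86 to -0.10, and this was the gene with an unadjusted p under 0.05. Without KO 3 the difference was -0.25 (limma adjusted p = 0.365).

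Ifngr2, the accessory chain, had 7.81, 7.88, 7.53, 8.16 and 8.02 in KO, 8.33, 8.28, 8.23, 7.75 and 8.06 in HET, and 8.09, 8.17, 8.32 and 8.19 in WT arrays on its brighter probe set. KO 3 was again the lowest array, and KO 4 lay within the WT range. The KO minus WT difference was -0.30 (SE 0.14, limma adjusted p = 0.383), and -0.16 without KO 3 (limma adjusted p = 0.622). The second probe set differed by -0.16 (SE 0.08, limma adjusted p = 0.817 over probe sets). The part of array quality in these values was not tested beyond leaving KO 3 out.

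**Figure D3:**
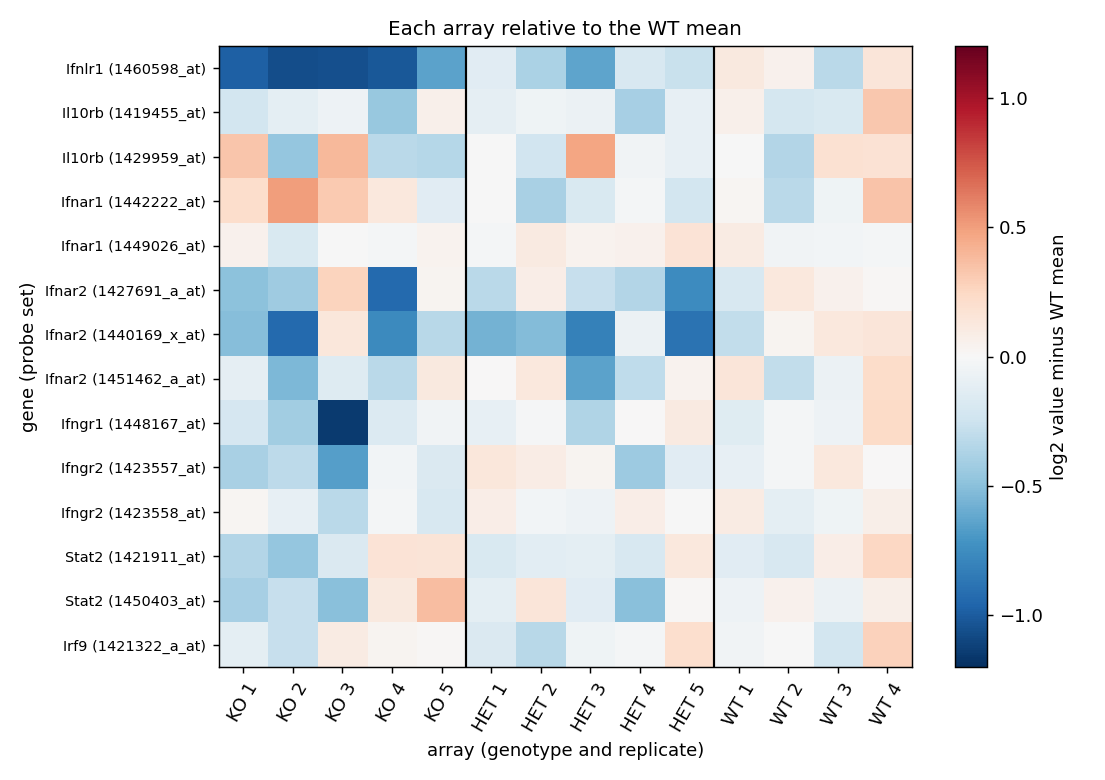
Log2 value of each member probe set in each array minus the mean of the 4 WT arrays (columns: arrays by genotype and replicate, rows: genes with probe sets, blue lower and red higher). The Ifnlr1 row lies below the WT mean in all 5 KO arrays. So do the rows of Ifngr1 and the brighter Ifngr2 probe set, with KO 5 and KO 4, in that order, close to the mean. The lowest cells of Ifngr1 and Ifngr2 belong to KO 3, and those of the Ifnar2 probe sets are scattered over KO and HET arrays.

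The groups overlapped for both intracellular members. Stat2 had 8.94, 8.82, 9.12, 9.46 and 9.44 in KO, 9.11, 9.16, 9.17, 9.09 and 9.41 in HET, and 9.15, 9.10, 9.37 and 9.53 in WT arrays. KO arrays spanned a wider range than the other groups, from the lowest value of all to values near the highest WT array. The KO minus WT difference was -0.11 (SE 0.14, limma adjusted p = 0.863), and a second Stat2 probe set gave -0.11 (SE 0.18, limma adjusted p = 1.00 over probe sets). These 2 probe sets followed each other over the arrays (r = 0.66). Irf9, the DNA-binding partner of STAT2, had 9.69, 9.53, 9.90, 9.83 and 9.82 in KO, 9.63, 9.47, 9.75, 9.78 and 10.01 in HET, and 9.76, 9.79, 9.58 and 10.08 in WT arrays. Its difference was -0.05 (SE 0.13, limma adjusted p = 0.943), with an interval from 80.0% to 117% of the WT intensity.

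In HET against WT limma called 0 of the 7 members, with 0 at an unadjusted p under 0.05, and called 0% of all genes, with 2.74% at an unadjusted p under 0.05. The differences of the 7 ran from -0.17 for Ifnar2 to 0.08 for Ifnar1. In KO against HET limma called 0 of the 7, with 1, Ifngr1, at an unadjusted p under 0.05, against 0.264% of genes called and 6.39% at an unadjusted p under 0.05. Ifngr1 differed there by -0.37 (SE 0.16, limma adjusted p = 0.713; -0.16 without KO 3), and the other 6 by between -0.24 and 0.03. Taking the 13 probe sets of these genes in the fit over all probe sets, 0 were called in any of the 3 comparisons. At an unadjusted p under 0.05 there were 2 in KO against WT, Ifngr1 and the Ifnar2 probe set that can match other transcripts, both lower. In HET against WT there was 1, the same Ifnar2 probe set, again lower. In KO against HET there were 2, Ifngr1, which was lower, and the dim Ifnar1 probe set, which was higher by 0.33. That fit called 0.315% of all probe sets in KO against WT, 0% in HET against WT and 0% in KO against HET, with 6.75%, 2.28% and 3.86% in the same order at an unadjusted p under 0.05. The comparisons share arrays and are not independent of each other.

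Ifnlr1 lies on chromosome 4, apart from the other chains, whereas Ifnar2, Il10rb, Ifnar1 and Ifngr2 lie close together on chromosome 16. Crebbp is on that chromosome too, about 87 Mb away from them. Ifngr1 and Stat2 are on chromosome 10 and Irf9 on chromosome 14 (RefSeq, GRCm38.p6). Of 10 protein-coding genes within 250 kb of Ifnlr1, 5 were tested and limma called 0 in KO against WT, with 1 at an unadjusted p under 0.05. Around the chromosome 16 cluster 7 of 11 were tested and 0 were called, again with 1 at an unadjusted p under 0.05. Over all genes tested the shares were 2.44% called and 13.1% at an unadjusted p under 0.05. The gene next to Ifnlr1 is Il22ra1, a chain of the IL-22 receptor that also pairs with IL10RB. It was too dim to be tested, at 5.87 to 6.12 in KO, 5.83 to 6.33 in HET and 6.09 to 6.32 in WT arrays. These neighbours were looked up after values had been seen.

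The rest of the pathway was described through lists of its other genes. In KO against WT the shares over all genes tested were 2.44% called and 13.1% at an unadjusted p under 0.05. Among the kinases and STATs 0 of 9 tested genes were called by limma in KO against WT, with 1 at an unadjusted p under 0.05, and 6 had negative differences (median -0.12). The smallest p-values belonged to Jak1, the kinase shared by all interferon receptors, at -0.24 (SE 0.08, limma adjusted p = 0.144), and Jak3 at -0.31 (SE 0.16, limma adjusted p = 0.454). Of 14 tested regulators of receptors and STATs 0 were called, with 1 at an unadjusted p under 0.05. The tyrosine phosphatase genes Ptpn1 (-0.21, SE 0.09, limma adjusted p = 0.334) and Ptpn6 (-0.15, SE 0.08, limma adjusted p = 0.504) came first. Their median was -0.02. The interferon regulatory factors had 0 of 7 called, 6 negative differences and a median of -0.07. Irf4, a factor of activated B cells and plasma cells, differed by -0.30 (SE 0.08, limma adjusted p = 0.0842) and was the one gene of this list with an unadjusted p under 0.05, followed by Irf8 at -0.22 (SE 0.11, limma adjusted p = 0.415).

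Genes downstream of the receptors were not called either, where 2.44% of all genes tested were called and 13.1% had an unadjusted p under 0.05. Of 19 tested targets of type I and type III interferon, 0 were called by limma in KO against WT and 1 had an unadjusted p under 0.05. Positive differences were found for 14 of them and negative ones for 5, where 51% of all genes tested were negative, and the median was 0.04. Ifih1, the RNA sensor MDA5, stood at 0.56 (SE 0.15, limma adjusted p = 0.0772) and Ddx58, the sensor RIG-I, at 0.34 (SE 0.16, limma adjusted p = 0.382). Of 12 tested targets of interferon gamma 0 were called and 3 had an unadjusted p under 0.05. Their median was -0.10, with Ciita, the transactivator of MHC class II genes, at -0.34 (SE 0.10, limma adjusted p = 0.121) and Cd274, encoding PD-L1, at -0.29 (SE 0.11, limma adjusted p = 0.269).

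List means covered every gene with a probe set, dim ones included, here 23 type I and III targets and 17 gamma targets. The mean level of the type I and III target list ran from 7.82 to 8.34 in KO, 7.54 to 8.26 in HET and 7.93 to 8.19 in WT arrays. That of the gamma target list ran from 8.17 to 8.44 in KO, 8.17 to 8.39 in HET and 8.28 to 8.42 in WT arrays. All groups overlapped in both. In HET against WT limma called 0 genes of any of these lists, with 0 at an unadjusted p under 0.05 in the kinase and STAT, regulator, regulatory factor and both target lists. The ligands were mostly dim, since 5 of the 6 with a probe set were below the median level, among them Ifnb1 and Ifng. Ifna1, the one tested, differed by -0.12 (SE 0.15, limma adjusted p = 0.872). Of the relatives in the class II cytokine receptor family only Il10ra, the ligand-binding chain for IL-10, was bright enough, at -0.37 (SE 0.16, limma adjusted p = 0.344).

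**Figure D4:**
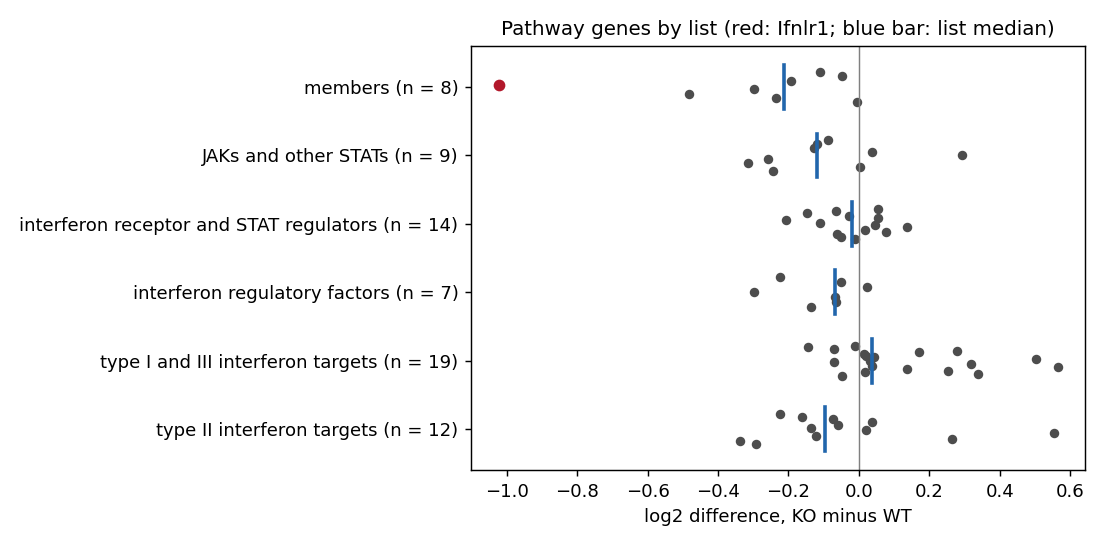
Log2 difference, KO minus WT, of each tested gene in 6 lists of the interferon pathway (1 point per gene, blue bar the median of the list, Ifnlr1 in red). Ifnlr1, selected on this difference, is the lowest point at -1.02. The list medians run from -0.21 for the members with Ifnlr1 included (-0.19 for the other 7) to 0.04 for type I and III interferon targets.

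Marker lists of other cells were read beside Ifnlr1. The T cell list had 0 of 2 tested genes called by limma in KO against WT (Cd8a 0.04, Cd3e -0.05), the neutrophil list 0 of 2 (S100a9 -0.23, S100a8 -0.18), the macrophage and dendritic cell list 0 of 2 (C1qb 0.45, Siglech -0.02) and the epithelial list 0 of 1 (Krt18 -0.28). None of these 7 had an unadjusted p under 0.05, and Elane, Mpo, Epcam and Cdh1 were below the median level. The neutrophil list had a mean level from 5.37 to 6.11 in KO, 5.27 to 6.45 in HET and 5.28 to 6.54 in WT arrays. Among B lineage genes limma called 1 of 10 germinal centre markers, 1 of 5 plasma cell markers and 1 of 6 naive and marginal zone markers. At an unadjusted p under 0.05 there were 3, 1 and 4 in the same order. Over all genes tested 2.44% were called and 13.1% had an unadjusted p under 0.05. The median difference was -0.06 for the germinal centre list, -0.06 for the plasma cell list and -0.32 for the naive and marginal zone list, in which 5 of 6 differences were negative. The called genes were Rgs13, a germinal centre regulator of G protein signalling, at -0.62 (SE 0.12, adjusted p = 0.0180), Sdc1, the plasma cell marker CD138, at 0.81 (SE 0.19, adjusted p = 0.0404) and Dtx1, a marginal zone B cell gene, at -0.41 (SE 0.10, adjusted p = 0.0496). Other genes of these lists, named after their values were seen, lay on the other side of 0 without a call, with Prdm1 at -0.28, Xbp1 at -0.15 and Jchain at -0.06 in the plasma cell list and Cd1d1 at 0.64 (SE 0.25, limma adjusted p = 0.280) in the naive and marginal zone list. The mean of the 7 naive and marginal zone markers ran from 8.87 to 9.41 in KO, 8.96 to 9.49 in HET and 9.20 to 9.45 in WT arrays, with overlap between all groups. The part of these B cell subsets in the Ifnlr1 difference was not tested.

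The genes whose pattern over the 14 arrays was most like that of Ifnlr1 were Tmem51 (r = 0.94), Ccdc175 (0.93), Fam221a (0.90), Psen2 (0.90), a presenilin of the gamma-secretase complex, and Dennd11 (0.89). The most opposite were Nqo2, a quinone reductase (-0.93), Poglut2 (-0.92), Bhlhb9 (-0.89), Fmn2, a formin (-0.89), and Slc49a4 (-0.89). These correlations hold the genotype difference that all these genes share, and they are a description of 14 arrays. Around the group means r was 0.74 for Tmem51 and -0.72 for Nqo2. Tmem51 averaged 7.23 in KO, 8.01 in HET and 8.32 in WT, and Nqo2 8.81 in KO, 8.53 in HET and 8.25 in WT. Of the 10224 other genes tested, 54 had r above 0.8 and 40 had r below -0.8. Over the 14 arrays the other members had values from 0.21 for Irf9 to 0.65 for Ifngr1. The genes most like Ifnlr1 were picked as the highest of all, so lower values in the members follow from that choice. Around the group means the values of these members ran from -0.10 for Ifngr2 to 0.60 for Ifnar2, with 0.48 for Ifngr1. The value of Ifnar2 was above those of Fam221a (0.58), Dennd11 (0.56) and Psen2 (0.49). It was below those of Tmem51 (0.74) and Ccdc175 (0.65).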

How the data were processed

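Total RNA (25 ng) of sorted cells from individual mice was amplified and 3.75 ug of cDNA labelled with biotin, per the labels' protocols. The authors deposited log2 intensity values per probe set, made with RMA per the submitters' processing notes; the RMA version and settings are not given in the sources used here, and no detection calls were used. The number of arrays limits the precision.

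Probe sets were named through GEO's platform annotation: 34945 had 1 gene symbol and 932 several, and 34741 were matched to RefSeq. Each gene was represented by its brightest single-gene probe set and kept where that probe set averaged over 6.43, the median level of the 45037 probe sets that are not controls; 10225 genes passed. Genotype and sex were fitted over all 14 arrays by lmFit and eBayes (limma 3.58.1, R 4.3.3), with Benjamini-Hochberg adjustment and a threshold of 0.05; a second fit used all 45037 non-control probe sets without a filter. The script was tested on simulated data. The members and gene lists were chosen with earlier results of these data known. Named genes are all members, the genes of each list that passed in KO against WT (up to 4, smallest p first) or else the 2 with the smallest p, the 5 tested genes with the highest and the 5 with the lowest correlation with Ifnlr1, and Crebbp; other named genes were chosen after their values were seen. Replicate numbers were not taken to pair the arrays, since the labels give no shared source. For KO and WT, same-number correlations of deviations from the group means ran from -0.00 to 0.23 (2 of 4 over 0.1). They ran from 0.050 to 0.38 for HET and WT (3 of 4) and from -0.17 to 0.37 for KO and HET (4 of 5). Correlations between different numbers were not computed, so whether arrays of the same number share processing was not tested. Alternatives changed the filter, the probe set summary, the normalization, the covariate, the arrays in the fit, the eBayes options, array weights, the replicate block and single arrays.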

Additional observations from a re-analysis of the deposited data

Results flagged for a closer look

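Among 42 groups of arrays (14 probe sets in 3 genotypes), 4 held an array far from the others of its group by Dixon's test, where chance gives about 1 in 20. KO 5 had the highest Ifnlr1 value of the KO arrays, 7.19, against 6.77 to 6.85 in the other 4. HET 4 had the lowest value of Il10rb (brighter probe set) among HET arrays, 7.85, against 8.14 to 8.19. HET 5 had the highest value of Stat2 (brighter probe set) among HET arrays, 9.41, against 9.09 to 9.17. WT 1 had the highest value of Ifnar1 (brighter probe set) among WT arrays, 9.48, against 9.33 to 9.35. The arrays concerned were different ones in each case.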

How the results depend on the processing

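The KO minus WT difference of Ifnlr1, on which it was selected, was followed over 24 alternatives. It ran from -1.10 to -0.97 with 1 array left out and from -1.13 to -0.95 under the other settings. These fits reuse the arrays of the selection, so their range is a description and no test of the difference. Of the other 7 members 0 were called in any comparison under any alternative. For Ifngr1 the adjusted p in KO against WT ran from 0.0948 to 0.396 over the alternatives. The number of genes called in KO against WT, 249, became 79 with females alone and 98 with only the 2 groups in the fit, and 130 to 259 with 1 array left out, with 144, 161, 146 and 130 without WT 1, 2, 3 and 4. In HET against WT, 0 became 6 with array weights. In KO against HET, 27 became 2 without the filter, 0 with females alone, 5 with only the 2 groups, 72 with array weights and 0 to 25 with 1 array left out. With the replicate block, which rests on numbers not shown to pair the arrays, 1 gene was called in HET against WT and 16 in KO against HET, and 0 members in any comparison.

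Members with differences near 0 changed sign. In KO against WT, Ifnar1 was 0.065 with the mean of its probe sets, Stat2 0.081 with females alone and 0.017 with array weights, and Irf9 0.16 with females alone. In HET against WT, Ifnar1 was -0.058 with the mean of its probe sets, Il10rb 0.034, Stat2 0.042 and Irf9 0.032 with females alone, and Stat2 0.053 and Ifngr2 0.057 with array weights. In KO against HET, Ifnar1 was 0.12 and Ifnar2 0.0049 with the mean of their probe sets, and Stat2 0.039 with females alone and 0.0023 with only the 2 groups. With 1 array left out, KO against WT ran from -0.024 to 0.024 for Ifnar1, -0.21 to 0.059 for Stat2 and -0.12 to 0.11 for Irf9. HET against WT ran from -0.11 to 0.031 for Ifngr2, -0.16 to 0.056 for Stat2 and -0.16 to 0.062 for Irf9. KO against HET ran from -0.14 to 0.050 for Il10rb, -0.17 to 0.021 for Ifnar2, -0.11 to 0.050 for Stat2 and -0.034 to 0.091 for Irf9. The cause of these changes was not tested.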
